A study of Mus musculus with 2 samples.

Results

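The genes of the integrin and laminin subunits were examined in mouse embryonic ureters cultured with the BMP antagonist NOGGIN and in untreated cultures. Every gene probe on the arrays whose accession belonged to an integrin alpha gene, to one of the genes Itgb1 to Itgb8 or to a laminin alpha, beta or gamma chain gene was taken. This gave 48 of 39429 probes, for 36 genes, and Itgae is not analysed here. Of the 36 genes, 33 passed the filter on dim probes and were tested among 21316 genes in all, 22 of them integrin and 11 laminin genes. Itga2 and Itgad were not well above background in any channel, and Itgb8 was above it in only some channels, so these 3 genes were not tested. Of the 33 tested, 31 were above background in all 4 channels, and Itga2b and Itgax missed it in the control-labelled channel of replicate 1.

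Integrins are cell surface receptors made of an alpha and a beta subunit. The alpha subunit largely sets which matrix protein is bound, and the beta subunit links the receptor to the actin cytoskeleton. Laminins are trimers of an alpha, a beta and a gamma chain that form the sheet-like core of basement membranes. In the developing urinary tract they underlie the epithelium and surround muscle cells, and integrins are the main receptors through which both tissues hold on to them.

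The NOGGIN-labelled samples were E12.5 ureters, from wildtype embryos of the NMRI strain and mixed in sex, that had been cultured for 18 h with NOGGIN at 10 µg/ml. The control-labelled samples were ureters of the same strain and stage cultured for 18 h without it. Each of 2 Agilent 2-colour arrays, replicates 1 and 2, carried 1 sample of each kind, with the dyes exchanged between the arrays. Nothing in the labels gives the number of embryos in a culture or says that the replicates came from separate litters, so the spread between arrays may be technical. Whole ureters were measured, and fewer cells of a type and less RNA per cell cannot be told apart in them. Marker genes of both labelled tissue layers were present, with 12 of 12 ureteric epithelium genes and 10 of 10 ureteric mesenchyme genes tested.

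Levels below are log2 normalised signals of a channel, and differences are log2 ratios of the NOGGIN-labelled over the control-labelled channel, as mean ± SD over the arrays (n = 2). A gene is called higher or lower by its signal in the NOGGIN-labelled channel, which the labels identify by its dye. The authors' deposited table runs the other way, with r = -0.965 on each array against these ratios, over 25590 probes on replicate 1 and 25593 on replicate 2. In that deposited table the signed fold change of Itga8 is -1.76 on replicate 1 and -1.63 on replicate 2, and that of Lama4 is 1.81 and 1.83. Id2, a target gene of BMP signalling that would be reduced by a BMP antagonist, was higher by 2.73 ± 0.87 in the NOGGIN-labelled channel, which goes against the labels, and Acta2, a smooth muscle actin, was at -1.16 ± 0.23. No direction is taken from Acta2 here. Because Id2 goes against the labels, the direction was not settled. Turning it would exchange every higher and lower call below and leave sizes and p-values unchanged.

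Integrin and laminin genes went in both directions, with more lower than higher among those that passed. An adjusted p under 0.05 in limma, which tests each gene's log2 ratio against 0, was reached by 9 of the 33 genes (27.3%), against 7.99% of all genes tested. Of these 9, Itga8 and Lamc3 were higher (3.95% of all genes were called higher), and Itga3, Itga4, Itga9, Itga11, Lama1, Lama4 and Lamb1 were lower (4.04% of all genes). The other 24 did not pass. The excess of lower genes was not seen at an adjusted p of 0.01 in limma (2 higher, 1 lower). Nor was it seen with the deposited values turned in sign (3 higher, 3 lower). Both arrays passed 1.5-fold for 4 of the 33 genes (2.9% of all genes), with Itga8 and Lamc3 higher (1.35% of all genes) and Itga11 and Lama4 lower (1.55%). On replicate 2 alone 7 genes were lower by that much, and on replicate 1 alone 2. The median log2 ratio of the 33 genes was -0.12, against 0.00084 over all genes, and their median size regardless of sign was 0.21, against 0.10. The calls depended on the intensity-dependent loess step, and the sizes of the differences did so less. With each array only centred on its median, 0 of the 33 genes and 0 of all genes passed in limma (14 and 3568 at an unadjusted p under 0.05). There the 9 log2 ratios kept their direction at 0.905 to 1.22 times their size with loess, with adjusted p between 0.089 and 0.259. Itga8 and Lamc3 were smaller in size than with loess, and the lower genes were larger.

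**Figure D1:**
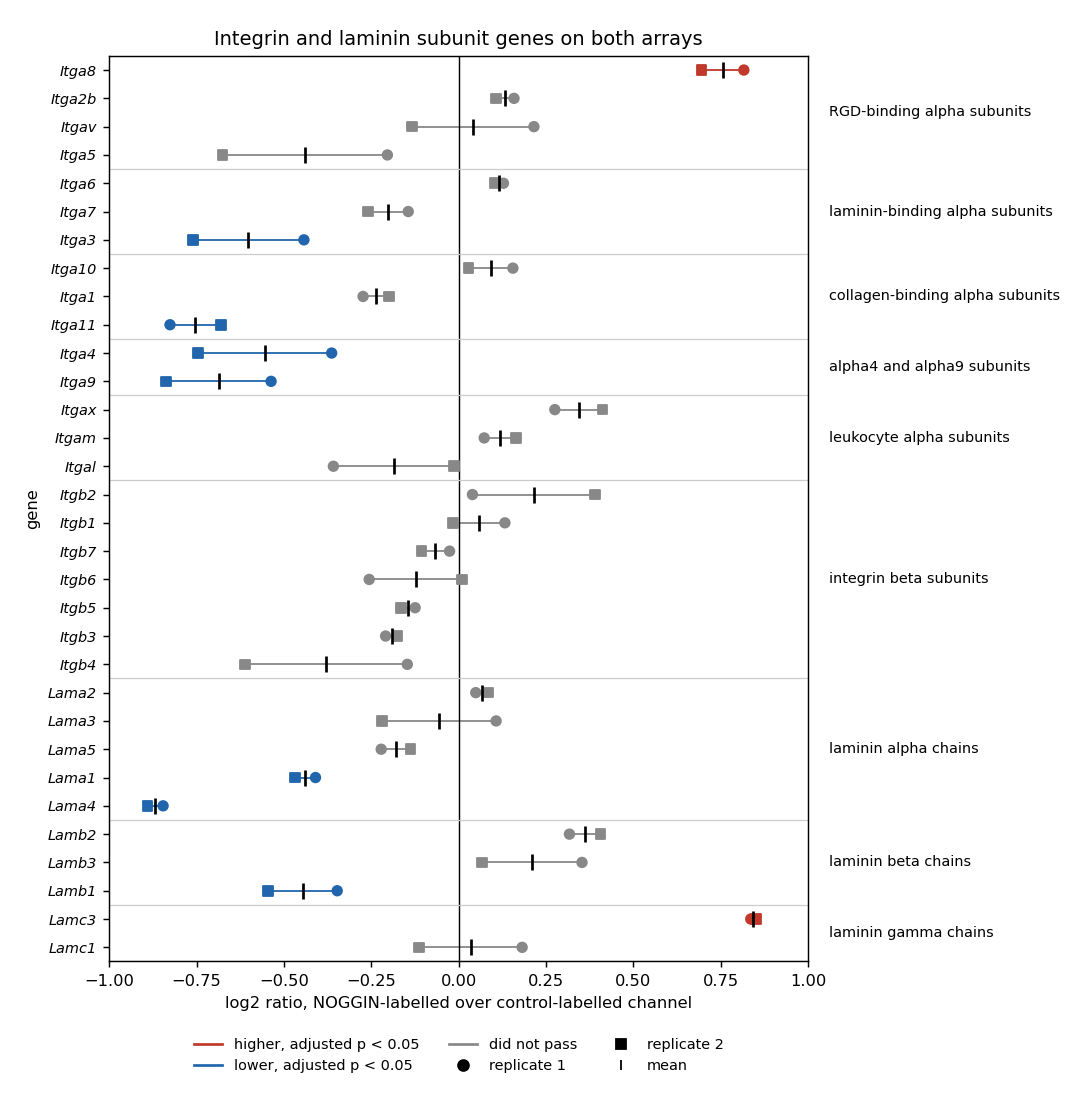
Log2 ratio (NOGGIN-labelled over control-labelled channel, x axis) of 32 tested integrin and laminin genes, grouped by role, with replicate 1 as circles, replicate 2 as squares and the mean as a black tick. Lamc3 and Itga8 lie to the right of 0 on both arrays in red, and the 7 genes in blue lie to the left of it on both arrays.

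The alpha subunits that recognise the RGD motif of matrix proteins differed among themselves. Itga8 encodes the subunit that binds nephronectin as a dimer with the Itgb1 product and is found in mesenchyme and smooth muscle. Its log2 signal was 14.16 and 14.10 in NOGGIN-labelled samples (replicates 1 and 2), against 13.34 and 13.40 in control-labelled samples. Both NOGGIN-labelled samples lay above both control-labelled ones. The difference was 0.76 ± 0.085, a 1.69-fold difference (adjusted p = 0.00936). Itga5, the fibronectin receptor subunit, had 10.47 and 10.06 in NOGGIN-labelled samples, against 10.68 and 10.74 in control-labelled samples. Its ratio of -0.44 ± 0.33 did not pass (adjusted p = 0.117), and was -0.20 on replicate 1 and -0.68 on replicate 2. Itgav, which pairs with several beta subunits in vitronectin and TGF-beta binding receptors, had 12.66 and 12.35 in NOGGIN-labelled samples, against 12.44 and 12.48 in control-labelled samples. These values overlapped, and the arrays had opposite signs (0.041 ± 0.25, adjusted p = 0.869). Another Itgav probe gave -0.25 and -0.22, so the probes of this gene disagree. Itga2b, a platelet subunit, did not pass at 0.13 ± 0.036. Of 4 platelet markers tested 1 was lower, beside 4.04% of all genes, with a median of -0.37. The listed platelet markers Gp9 and Treml1 were not tested.

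The 250 bases before the gene starts of Itga8, Itga11 and Lamb1 are shown, chosen after their values were seen: Itga8 was the higher gene with a promoter entry, Itga11 the lower one past 1.5-fold with an entry, and Lamb1 a lower gene with several motif matches. The sequences are from RefSeq on GRCm38.p6, 5′ to 3′ on the gene's strand. Itga8 lies at chr2:12301945-12302194 on the minus strand, Itga11 at chr9:62677605-62677854 on the plus strand and Lamb1 at chr12:31265043-31265292 on the plus strand. Capitals mark matches, on either strand, to CAGAC (the box that SMAD proteins recognise), GGCGCC (a GC-rich motif bound by BMP-responsive SMADs) and CANNTG (the E-box of the helix-loop-helix factors that ID proteins inhibit).
Itga8: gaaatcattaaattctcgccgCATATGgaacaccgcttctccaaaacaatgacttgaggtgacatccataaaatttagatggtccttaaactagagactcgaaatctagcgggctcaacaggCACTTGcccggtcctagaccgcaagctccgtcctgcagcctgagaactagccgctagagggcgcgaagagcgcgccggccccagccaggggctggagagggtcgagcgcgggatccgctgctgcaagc
Itga11: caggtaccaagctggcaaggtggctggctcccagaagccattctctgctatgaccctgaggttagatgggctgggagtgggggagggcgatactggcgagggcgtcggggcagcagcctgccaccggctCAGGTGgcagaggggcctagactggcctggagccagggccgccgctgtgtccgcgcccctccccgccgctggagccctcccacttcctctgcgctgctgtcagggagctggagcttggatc
Lamb1: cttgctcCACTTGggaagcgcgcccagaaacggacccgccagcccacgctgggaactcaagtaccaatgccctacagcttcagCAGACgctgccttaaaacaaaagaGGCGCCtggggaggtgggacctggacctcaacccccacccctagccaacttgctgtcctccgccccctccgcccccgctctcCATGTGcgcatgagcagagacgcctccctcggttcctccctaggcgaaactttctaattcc

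Itga8 held 2 matches to CANNTG, Itga11 held 1, and Lamb1 held 2 of them with 1 match each to CAGAC and GGCGCC. No matches overlapped each other in these windows. A promoter entry was found for 23 of the 36 genes and for 6 of the 9 that passed. CANNTG was in 18 of the 23 windows and in 6 of the 6, against 66.2% of all 32851 windows of this length. CAGAC was in 14 of the 23 and 3 of the 6 (42.2% of all windows), GGCGCC in 3 and 1 (9.59%), and the CArG box of muscle genes in 1 and 0 (1.47%). Letters in a window describe the sequence and show no binding.

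Of the laminin-binding alpha subunits, Itga3 fell. Itga3, an epithelial laminin receptor subunit, had 9.29 and 9.12 in NOGGIN-labelled samples, against 9.73 and 9.88 in control-labelled samples. The groups did not overlap, and the ratio was -0.60 ± 0.23 (1.52-fold, adjusted p = 0.0312). The call held under 9 of 11 alternative settings, with adjusted p between 0.0214 and 0.163. Itga6, whose product forms the hemidesmosome receptor with that of Itgb4, had 11.97 and 11.57 in NOGGIN-labelled samples, against 11.84 and 11.47 in control-labelled samples. It was higher within each array but by less than the arrays differed (0.12 ± 0.017, adjusted p = 0.414). Itga7, the muscle laminin receptor subunit, did not pass at -0.20 ± 0.081.

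Of the collagen-binding alpha subunits, Itga11 fell by the most. It marks mesenchymal cells and fibroblasts, where it binds fibrillar collagen. Its log2 signal was 9.23 and 9.26 in NOGGIN-labelled samples, against 10.05 and 9.94 in control-labelled samples. All 4 values kept the groups apart, with a ratio of -0.75 ± 0.10 (1.69-fold, adjusted p = 0.0101). Itga1, a collagen receptor subunit of smooth muscle and stroma, had 9.43 and 9.18 in NOGGIN-labelled samples, against 9.70 and 9.38 in control-labelled samples. Its groups overlapped, the ratio of -0.24 ± 0.052 did not pass (adjusted p = 0.139), and its other probe gave 0.11 and -0.065. Itga10, known from cartilage, was at 0.092 ± 0.090 and did not pass.

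Both tested genes of the alpha4 and alpha9 branch, whose products bind VCAM1, fibronectin splice forms and tenascin-C, were lower. Itga9 had 14.17 and 14.06 in NOGGIN-labelled samples, against 14.71 and 14.89 in control-labelled samples. Itga4 had 13.18 and 12.98 in NOGGIN-labelled samples, against 13.54 and 13.73 in control-labelled samples. For both genes every NOGGIN-labelled value lay below every control-labelled one, and both fell further on replicate 2. The ratio was -0.69 ± 0.21 for Itga9 (1.61-fold, adjusted p = 0.021) and -0.55 ± 0.27 for Itga4 (1.47-fold, adjusted p = 0.0486). The Itga4 call is narrow: it held under 6 of 11 alternative settings, with adjusted p between 0.0271 and 0.151. Another Itga4 probe gave -0.38 and -0.57.

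Integrin beta subunits did not pass in limma in any of the 7 genes tested (adjusted p from 0.156 upwards), beside 7.99% of all genes called. An unadjusted p under 0.05 was reached by 2 of the 7, beside 4955 of all 21316 genes. Beside these shares the counts are no result about beta subunits as a group. Itgb1, the shared partner of Itga1, Itga3, Itga4, Itga5, Itga8, Itga9 and Itga11, had 15.24 and 15.09 in NOGGIN-labelled samples, against 15.11 and 15.11 in control-labelled samples. These values overlapped. The ratio was 0.058 ± 0.10, with a 95% interval of -0.14 to 0.26 from the limma fit (adjusted p = 0.731). Itgb4, the hemidesmosome subunit, had 9.66 and 9.56 in NOGGIN-labelled samples, against 9.80 and 10.18 in control-labelled samples. Its ratio of -0.38 ± 0.33 came mostly from replicate 2 (-0.61, against -0.15 on replicate 1) and did not pass. Itgb6, an epithelial partner of Itgav, had 8.30 and 8.51 in NOGGIN-labelled samples, against 8.55 and 8.50 in control-labelled samples, and overlapped (-0.12 ± 0.19). The untested Itgb8 had ratios of -0.17 and -0.47. The remaining tested beta subunit genes, Itgb2, Itgb3, Itgb5 and Itgb7, lay between -0.19 and 0.22. That these genes missed the threshold does not show that they were unchanged.

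Leukocyte integrin genes did not pass either, beside 7.99% of all genes called. Itgax was at 0.34 ± 0.097 (adjusted p = 0.0675), Itgam at 0.12 ± 0.064, Itgal at -0.19 ± 0.24 and their shared partner Itgb2 at 0.22 ± 0.25. The Itgam value is from a probe with 13.89 and 14.06 in NOGGIN-labelled samples. Its other kept probes were far dimmer there, at 7.46 and 7.50 and at 7.21 and 7.23, with mean ratios of 0.017 and 0.094. Of 11 leukocyte marker genes tested 0 passed in limma, beside 7.99% of all genes. An unadjusted p under 0.05 was reached by 3 of them, beside 4955 of all 21316 genes. The median log2 ratio of these markers was -0.44 on replicate 1 and 0.035 on replicate 2. Their summed linear signal was 26638 and 26918 in NOGGIN-labelled samples, against 36532 and 25795 in control-labelled samples. The part of these cells in the ratios was not tested.

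**Figure D2:**
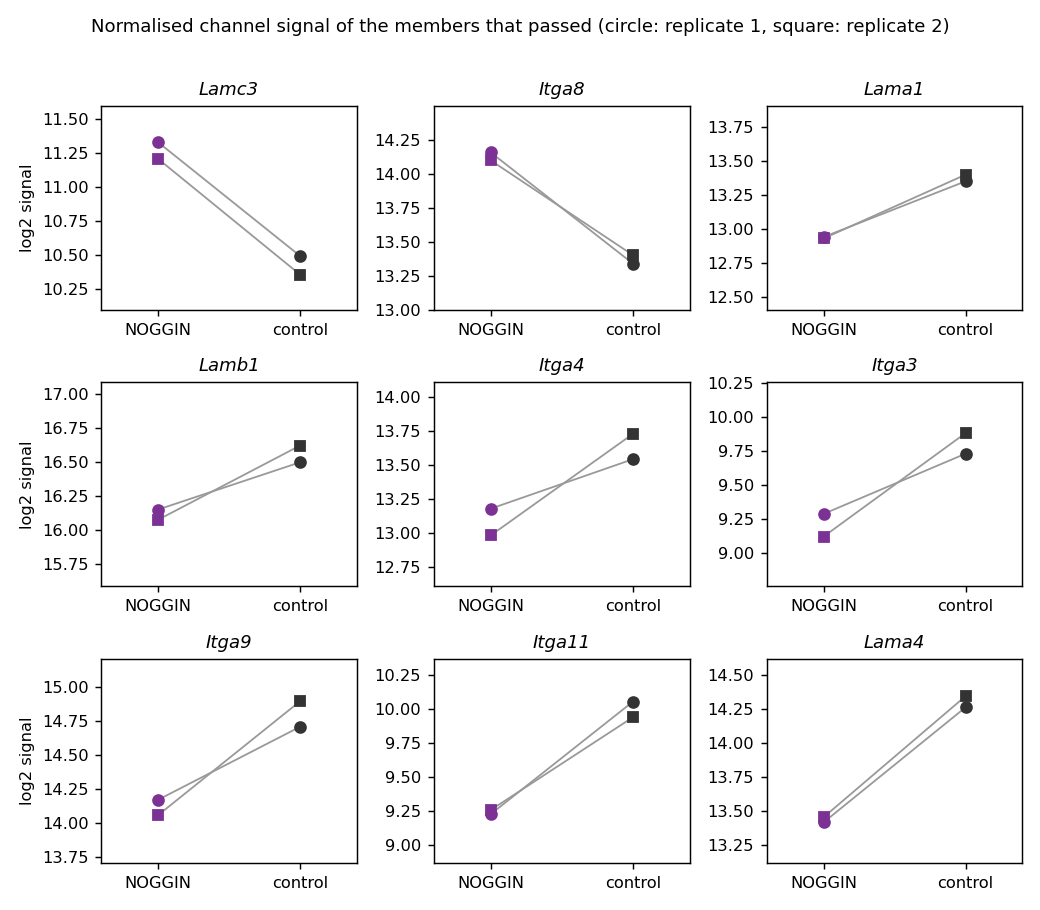
Log2 normalised channel signal (y axis, 1.5 units high in each panel) of the 9 genes that passed, in NOGGIN-labelled (left) and control-labelled (right) samples, with circles for replicate 1, squares for replicate 2 and a line joining the channels of 1 array. In every panel the groups do not overlap, and the 2 genes with higher NOGGIN-labelled signal are Lamc3 and Itga8.

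Laminin alpha chains fell in 2 of 5 genes, where 4.04% of all genes were called lower, and rose in 0. Lama4 encodes the chain of laminins around blood vessels, muscle cells and mesenchyme. Its log2 signal was 13.42 and 13.46 in NOGGIN-labelled samples, against 14.26 and 14.35 in control-labelled samples. The replicates nearly coincided while the groups stood apart by -0.87 ± 0.031, a 1.83-fold difference (adjusted p = 0.00624). Lama1, the chain of early embryonic basement membranes, had 12.94 and 12.93 in NOGGIN-labelled samples, against 13.35 and 13.40 in control-labelled samples. It fell by a smaller amount, with a ratio of -0.44 ± 0.042 (1.36-fold, adjusted p = 0.031). The call held under 8 of 11 alternative settings, with adjusted p between 0.013 and 0.131. Lama5, the chain of mature epithelial basement membranes, had 14.56 and 14.66 in NOGGIN-labelled samples, against 14.78 and 14.79 in control-labelled samples. Its groups did not overlap either, but the ratio of -0.18 ± 0.060 did not pass (adjusted p = 0.235). Lama2, the chain of muscle fibres, had 13.62 and 13.56 in NOGGIN-labelled samples, against 13.57 and 13.47 in control-labelled samples, and overlapped (0.067 ± 0.026, adjusted p = 0.652). Lama3, of epithelial anchoring laminins, had 9.71 and 9.40 in NOGGIN-labelled samples, against 9.60 and 9.62 in control-labelled samples, with opposite signs on the arrays (-0.056 ± 0.23).

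Among the beta chains, Lamb1 fell and Lamb2 leaned the other way without passing. Lamb1 encodes the beta chain of most embryonic laminins and had 16.15 and 16.07 in NOGGIN-labelled samples, against 16.50 and 16.62 in control-labelled samples. The groups were apart, with a ratio of -0.45 ± 0.14 (1.36-fold, adjusted p = 0.0425). The call held under 7 of 11 alternative settings, with adjusted p between 0.0285 and 0.259. Lamb2, the beta chain of synaptic, muscle and glomerular basement membranes, had 12.88 and 13.03 in NOGGIN-labelled samples, against 12.56 and 12.62 in control-labelled samples. Its ratio was 0.36 ± 0.063 (adjusted p = 0.0528), just outside the threshold. The difference between Lamb1 and Lamb2 was not tested. Lamb3, of epithelial anchoring laminins, was at 0.21 ± 0.20 and did not pass.

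Among the gamma chains, Lamc3 rose. It encodes a gamma chain of restricted expression and had 11.33 and 11.21 in NOGGIN-labelled samples, against 10.49 and 10.36 in control-labelled samples. The arrays gave nearly the same ratio, 0.84 and 0.85, with a mean of 0.84 ± 0.011 (1.79-fold, adjusted p = 0.00639). Lamc1, the gamma chain shared by most laminins, had 15.73 and 15.50 in NOGGIN-labelled samples, against 15.55 and 15.62 in control-labelled samples. These overlapped, with opposite signs on the arrays and a 95% interval of -0.21 to 0.28 from the limma fit (0.034 ± 0.21, adjusted p = 0.883).

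**Figure D3:**
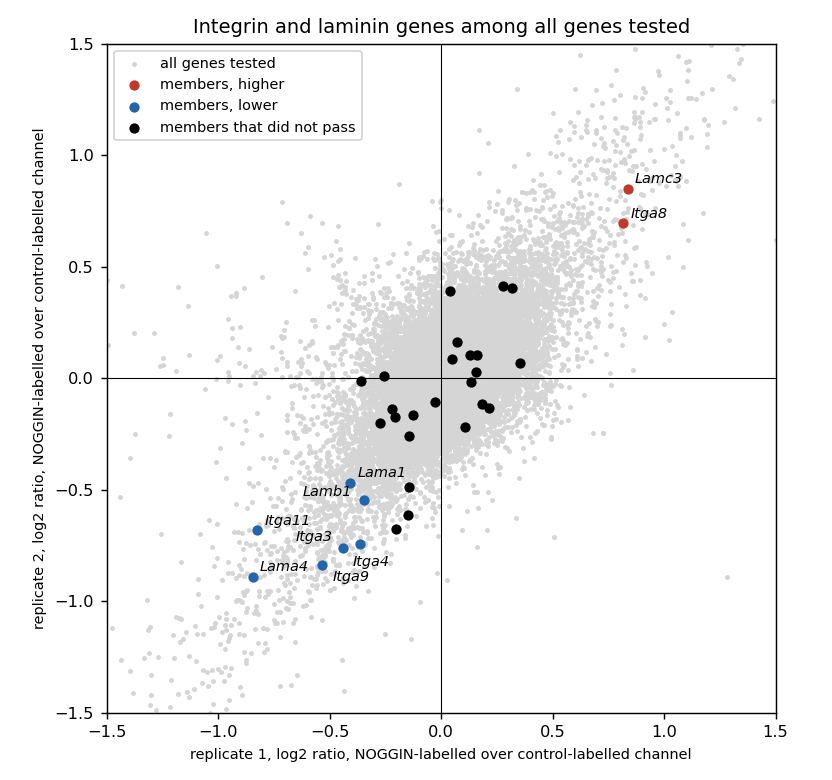
Log2 ratio (NOGGIN-labelled over control-labelled channel) on replicate 1 (x axis) and replicate 2 (y axis) for all genes tested in grey, with integrin and laminin genes coloured; 125 genes lie outside the plotted range of 1.5 either way. Lamc3 and Itga8 lie in the upper right, and the 7 lower genes in the lower left, with Lama4 and Itga11 the farthest along replicate 1.

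Over the 33 tested genes, 28 had the same sign on both arrays and 5 had opposite signs, against 66.7% of all genes with the same sign. Channel levels did not overlap between NOGGIN-labelled and control-labelled samples for 21 of them, against 51.2% of all genes tested. Of these, 8 were higher (25.6% of all genes) and 13 lower (25.7%). Of the 9 that passed, 7 had the larger size on replicate 2. More than 1 probe was kept for 10 of the genes, and the mean ratios of the probes differed in sign for 3 of them, Itga1, Itgav and Itgb1, none of which passed.

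Ligands of integrins other than laminins moved in both directions. Of 18 tested, 4 were higher, 6 lower and 8 did not pass, beside 3.95% of all genes called higher and 4.04% lower, with a median of -0.11. Npnt, which encodes nephronectin, the ligand of the Itga8 dimer, was lower where Itga8 was higher. Npnt had 8.44 and 9.12 in NOGGIN-labelled samples, against 9.31 and 9.70 in control-labelled samples, a ratio of -0.72 ± 0.20 (adjusted p = 0.0181). Tnc, encoding the tenascin bound by the Itga9 product, was lower as Itga9 was, at -0.91 ± 0.059. Fn1, encoding fibronectin, was lower at -0.47 ± 0.064 (adjusted p = 0.0283), and Thbs2, encoding a thrombospondin, at -1.07 ± 0.16. Edil3, which encodes an RGD protein, was higher by 1.12 ± 0.11, and Postn, encoding periostin, by 0.92 ± 0.21.

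Other basement membrane genes fell in 3 of 18 and rose in 0, so that 16.7% were called, beside 7.99% of all genes called and 4.04% called lower. All 3 encode collagen IV chains: Col4a6 at -1.51 ± 0.23, Col4a5 at -0.87 ± 0.13 and Col4a4 at -0.60 ± 0.089. Col4a4 was the dimmest of the 3, with 7.60 and 7.69 in NOGGIN-labelled samples, against 8.14 and 8.35 in control-labelled samples. Col4a1, one of the chains present in nearly every basement membrane, did not pass at -0.19 ± 0.32. The list's median was -0.17. Genes of the adhesion complex that joins integrins to actin fell in 3 of 24 and rose in 0, with a median of -0.12. Beside the 7.99% of all genes that were called, this count of 3 of 24 is no result about the list. These were Lims2, encoding a PINCH adaptor, at -1.28 ± 0.21, Actn1, an actin crosslinker, at -0.61 ± 0.13 and Zyx, encoding zyxin, at -0.60 ± 0.22.

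**Figure D4:**
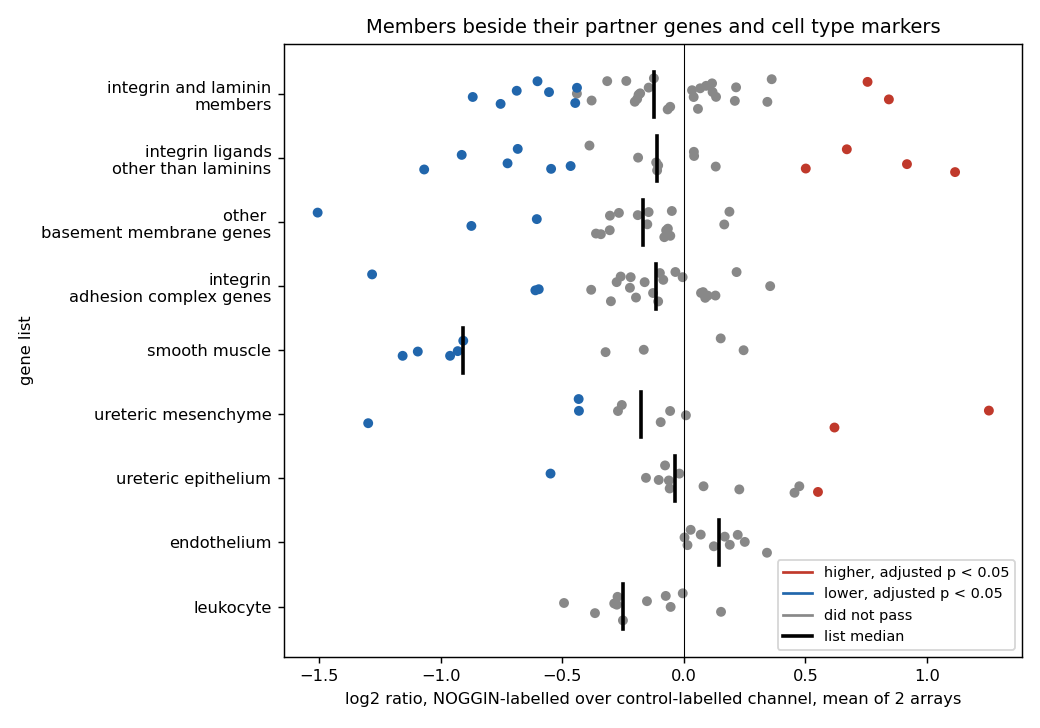
Mean log2 ratio (NOGGIN-labelled over control-labelled channel, x axis) of each tested gene, by gene list, with red for higher, blue for lower, grey for genes that did not pass and a black bar for the list median. The smooth muscle markers have the lowest median, -0.91, and 5 of their 9 genes are lower (4.04% of all genes). The means of the 10 endothelial markers lie above 0, 4 of them by less than 0.1, and none passed.

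Markers of the cell types that carry these subunits were read beside them. Over all genes 3.95% were called higher and 4.04% lower, the shares to set beside each count below. Smooth muscle markers, which accompany Itga8, Itga9 and Lama4 in muscle, fell in 5 of 9 genes, Acta2, Tagln, Actg2, Cnn1 and Myh11, and rose in 0, while Des, Smtn, Mylk and Myocd did not pass. Their summed linear signal was 247984 and 258177 in NOGGIN-labelled samples, against 510762 and 500614 in control-labelled samples. Acta2 and Tagln made up between 71.2% and 81.6% of this sum in each channel, so it mostly restates those genes. Itga8 was higher where 5 of the 9 muscle markers fell, and Itga9 and Lama4 were lower. The part of muscle cells in the ratios of Itga8, Itga9, Itga11 and Lama4 was not tested. In limma 0 of 10 endothelial markers passed (7.99% of all genes). An unadjusted p under 0.05 was reached by 3 (4955 of all 21316 genes). These markers had a median of 0.15 where Lama4 was lower. Their mean ratios were above 0 in 10 of 10, beside 10721 of all 21316 genes, but 4 were under 0.1. The arrays had the same sign for 7 of the 10, beside 66.7% of all genes. Of 12 epithelial markers Foxa1 was higher, Cldn4 lower and 10 did not pass, with a median of -0.038 where Itga3 was lower. Of 10 mesenchymal markers 2 were higher, 3 lower and 5 did not pass, with a median of -0.17 where Itga8 was higher and Itga11 lower. The part of these cell types in the ratios was not tested.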

How the data were processed

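Per the file headers, Agilent Feature Extraction (version 10.7.3.1) wrote the deposited spot and background intensity of a green and a red channel for each array. It also wrote a log10 ratio of red over green processed signal, per the file headers, which was used here only to check the channels. The deposited table of both arrays holds signed fold values whose direction and normalisation are not given in the sources used here. A genome build for the probes is likewise not given.

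Spot intensities as deposited were background-corrected in limma 3.58.1 (R 4.3.3; normexp, offset 50) and loess-normalised within each array, with control, outlier and filler spots at weight 0. Ratios were oriented as NOGGIN-labelled over control-labelled from the dyes in the labels. The 4 spots of a probe were averaged. A probe was kept where more than 0.5 of its spots were above background in 1 condition's channel on both arrays, which left 26712 probes. The brightest kept probe stood for a gene, giving 21316 genes. Levels are log2 signals after Aquantile scaling between the arrays, from the deposited intensities. The test of each gene's ratio against 0 used limma's lmFit and eBayes, two-sided, with Benjamini-Hochberg adjustment over all genes. There is 1 residual degree of freedom beside 4.13 prior ones, so 2 arrays limit the precision. Between 67.3% and 74.3% of gene spots in a channel were above background, and 0 were saturated.

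All members are accounted for by role, with channel values for those that passed, for a fixed list of subunits and for the Itgam probes. Other genes named are up to 4 passing genes of each pathway list, plus Npnt, Fn1, Col4a1, Id2 and Acta2. Single marker genes were named after their values were seen. The members and lists were chosen with earlier results of these data known. The values of 1 member that did not pass are not reported here, though it stays in the counts. The fit was also run on simulated ratios whose noise was drawn from the differences between these arrays. That run is no independent check of the spread, and its outcome is not used here. Alternatives covered background correction, normalisation, the dim probe filter, probe choice, the variance model and thresholds. They also covered the deposited table, turned in sign, and leaving out each array.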

Additional observations from a re-analysis of the deposited data

How the results depend on the processing

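The 9 integrin and laminin genes that passed kept their direction under all 11 alternative fits, and 9 of 9 passed under 5 of them. The deposited values, which run the other way, were turned in sign before their fit. That fit is therefore no check on which direction is right. With median centring and no loess, 0 members were higher and 0 lower, 0 genes in all were higher and 0 lower, and 0 pathway genes passed in either direction; the cause was not tested. The 9 ratios there were 0.905 to 1.22 times those with loess, smaller in size for Itga8 and Lamc3 and larger for the lower genes. By 1.5-fold on both arrays, 2 members were higher and 3 lower there. There the mean ratios of 4 genes that passed nowhere in the comparison turned to -0.0134 for Itgav, -0.0353 for Itgb1, -0.0044 for Lama2 and -0.0635 for Lamc1, and averaging its probes turned Itgav to -0.0964. With processed signals and median centring 3 members were higher and 4 lower. With the deposited values turned in sign 3 were higher and 3 lower. Itgax and Lamb2 both passed as well with the median of spots and with a variance trend, giving 4 higher members each time. Itgax also passed with no normexp offset, with processed signals and with the deposited values turned in sign. Lamb2 also passed with the mean of a gene's probes and with no filter on dim probes. An adjusted p of 0.01 left 170 genes higher and 208 lower, 2 members higher and 1 lower, and 1 pathway gene higher and 5 lower. At a lower fold limit 7 members were lower on both arrays, and at 2-fold 0 were higher and 0 lower. Leaving out an array gave between 2 and 7 members lower by 1.5-fold, with 7 on replicate 2 alone. With loess including filler spots, an alternative chosen after seeing the data, Itga4 no longer passed. The test of within-array ratios against 0 is itself the paired analysis. Dim genes such as Itga2b and Itgax had signal near background, which limits their ratios.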
